A study of Homo sapiens with 12 samples.

Results

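The long transcripts MIR155HG, MIR17HG and MIR22HG, which carry microRNAs within them, were followed across B-lineage and Hodgkin lymphoma cell lines by total RNA-Seq. They were taken by symbol as 3 of the 26210 gene rows, and the separate rows of the mature microRNAs or their hairpins were not used for them. The 12 libraries formed 6 groups of 2. KM-H2, L1236 and L428 are classical Hodgkin lymphoma (cHL) cell lines, grown in IMDM. Namalwa, a Burkitt's lymphoma line, and Reh, a pro-B lymphoblastic leukaemia line, are non-Hodgkin controls grown in RPMI, and these 5 groups carried no treatment. Reh_PMA was Reh exposed to phorbol 12-myristate 13-acetate (PMA) at 2 ng/ml, and the length of exposure for these libraries is not given in the sources used here. PMA is a phorbol ester that activates protein kinase C and, through it, MAP kinase and NF-κB signalling. Each group is a single established line, so a difference between lines cannot be told apart from other differences between those lines, including the medium.

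A microRNA host gene is transcribed as a long RNA from which DROSHA excises a hairpin in the nucleus and DICER1 releases the mature strand in the cytoplasm, where an Argonaute protein uses its seed to find target mRNAs. MIR155HG, also known as BIC, carries miR-155, which is induced in activated B cells and is known for high levels in Hodgkin and Reed-Sternberg (HRS) cells and low levels in most Burkitt lymphomas. MIR17HG carries the polycistronic miR-17-92 cluster, a target of MYC and E2F factors that is amplified in some B-cell lymphomas. MIR22HG carries miR-22 and is known as a stress-responsive transcript. A library of total RNA reads the host RNA, not the mature strand, so the values below describe the hosts only.

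The guide strands of these hosts are shown because they state which target seeds each host transcript can supply. The sequences are from RefSeq (table of build GRCh38.p14), 5′ to 3′, with the seed (bases 2 to 8) in capitals.
miR-155-5p (MIR155HG): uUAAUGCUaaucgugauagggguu
miR-17-5p (MIR17HG): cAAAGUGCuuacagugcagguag
miR-20a-5p (MIR17HG): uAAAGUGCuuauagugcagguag
miR-18a-5p (MIR17HG): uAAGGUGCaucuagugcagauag
miR-19a-3p (MIR17HG): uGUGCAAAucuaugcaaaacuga
miR-19b-3p (MIR17HG): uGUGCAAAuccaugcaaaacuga
miR-92a-3p (MIR17HG): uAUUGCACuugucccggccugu
miR-22-3p (MIR22HG): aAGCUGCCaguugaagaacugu
These 8 strands had 6 seeds. miR-17-5p and miR-20a-5p shared 1 seed, miR-19a-3p and miR-19b-3p shared another, and no seed was shared between hosts.

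In GRCh37, the build of the deposited values, MIR155HG lies on the forward strand at chr21:26934122-26947480. The miR-155-5p sequence at chr21:26946295-26946318 falls in an exon (exon 3 or 4) of both annotated transcripts. MIR17HG lies on the forward strand at chr13:91999940-92049846, and its 6 hairpins run from base 92002859 to base 92003645. Those hairpins are intronic in 8 of its 16 annotated transcripts, exonic in 3 and outside the other 5. MIR22HG lies on the reverse strand at chr17:1614741-1620468, and miR-22-3p at chr17:1617208-1617229 is exonic in 30 of its 32 transcripts and intronic in 2. These gene spans are from GENCODE, where WDR81, a protein-coding gene on the opposite strand that begins at base 1619817, overlaps the first bases of MIR22HG. Rows for the 8 hairpins themselves were listed at 0 in all 12 libraries, as were 1795 of the 1850 rows named as a single hairpin.

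The start regions of MIR155HG and MIR22HG are shown because both transcripts rose with PMA, which acts on AP-1 and NF-κB factors. Each window runs from 250 bases before the RefSeq start to 50 bases after it, on the gene's strand, and matched GRCh37 exactly once, at chr21:26934207-26934506 and chr17:1619455-1619754. Both windows lie inside the GENCODE spans given above, which begin further upstream than the RefSeq starts. The MIR22HG window does not reach WDR81, so the overlap with WDR81 holds for the GENCODE span and not for the RefSeq start. Capitals mark an AP-1 match (TGANTCA, searched on both strands).
MIR155HG promoter: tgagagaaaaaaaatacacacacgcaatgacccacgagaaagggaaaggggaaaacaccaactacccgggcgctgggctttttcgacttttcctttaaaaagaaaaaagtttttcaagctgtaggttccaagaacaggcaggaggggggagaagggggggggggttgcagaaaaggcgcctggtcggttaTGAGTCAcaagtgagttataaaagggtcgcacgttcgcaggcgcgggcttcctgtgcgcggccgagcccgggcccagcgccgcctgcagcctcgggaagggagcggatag
MIR22HG promoter: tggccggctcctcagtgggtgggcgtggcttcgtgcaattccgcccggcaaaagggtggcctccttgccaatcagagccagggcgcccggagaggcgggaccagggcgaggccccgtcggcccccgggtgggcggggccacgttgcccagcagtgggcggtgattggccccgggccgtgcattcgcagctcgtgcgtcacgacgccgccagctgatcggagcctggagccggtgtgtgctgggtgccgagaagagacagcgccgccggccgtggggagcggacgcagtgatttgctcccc
MIR155HG had 1 AP-1 match, beginning 60 bases before the start, and 7.71% of 35116 promoter windows of the same length held at least 1. The windows of MIR22HG and MIR17HG held none. The same search found no κB motif (held by 11.3% of windows), E-box CACGTG (7.26%), E2F motif TTTNGCGC (1.79%), CArG box (1.29%) or CRE TGACGTCA (1.85%) in any of the 3 windows. A match is a run of letters and not evidence of binding, and no match says only that these letters are not in this window.

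The 3 transcripts were measured as FPKM, fragments scaled by transcript length and by a factor for each library, so levels of different genes are compared per length. The setting for the library factor and the annotation that set the lengths are not given in the sources used here. All 3 passed the filter for low values (1 FPKM in at least 2 libraries), which left 14679 genes. Library depth is not given with the values. Ratios of the lowest values between libraries gave relative depths from 0.390 to 2.36 of Reh library 0, and both KM-H2 libraries were the shallowest, at 0.390 and 0.595. Duplicates correlated at r = 0.906 to 0.922 over tested genes in the cHL lines and at 0.969 to 0.985 in the others. The summed FPKM of 7 B-cell markers was 0.773 to 37.2 in the cHL lines and 924 to 1407 in Namalwa, Reh and Reh_PMA. The 6 precursor B-cell markers summed to 1111 to 1197 FPKM in Reh, 124 to 136 in Reh_PMA and Namalwa and at most 0.758 in the cHL lines, and VPREB1 was listed at 0 in Reh. The 6 Hodgkin line markers summed to 139 to 883 FPKM in the cHL lines and 19.1 to 58.3 elsewhere, and CCL22 was listed at 0 in KM-H2. Of the 6, 3 did not separate the cHL lines from the others. CCL22 was also low in L428 (0.638 and 0.0541 FPKM, against 0.334 and 0.253 in Namalwa), CD70 in Namalwa (36.4 and 57.1 FPKM) overlapped L1236 (37.7 and 46.1), and CSF1R was highest in Reh_PMA (11.8 and 11.2, against 0.246 to 2.05 in the cHL libraries). The 6 germinal centre markers summed to 381 to 425 FPKM in Namalwa, 155.3 to 181 in Reh, 68.9 to 72.6 in Reh_PMA and 11.9 to 111 in the cHL lines. T-cell markers summed to 17.8 to 26.3 FPKM in KM-H2 and to at most 0.159 elsewhere. In KM-H2 that sum was mostly CD3D (13.5 and 22.5 FPKM) and CD3G (3.25 and 2.85), with CD2 at 0.779 and 1.01 and CD3E at 0.197 and 0. The 4 monocyte and macrophage markers summed to 14.8 to 16.8 FPKM in KM-H2, 10.1 to 24.1 in L428, 3.82 to 8.49 in Reh and Reh_PMA, and at most 1.12 in L1236 and Namalwa. In L428 that sum was CD68 (23.9 and 9.86 FPKM), with CD14, ITGAM and LYZ at 0 to 0.162, whereas 3 of the 4 were at 1 FPKM or more in both KM-H2 libraries. The part of these other cell types' markers in the results was not tested. Nothing in the labels says whether duplicates came from separate cultures, so p-values measure only the spread between these libraries. With bulk RNA, a lower level in fewer cells and a lower level per cell cannot be told apart.

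MIR155HG was high in all 3 cHL lines and in PMA-treated Reh, and low in untreated Namalwa and Reh. It was measured at 114 and 26.7 FPKM in KM-H2, at 91.5 and 114 in L1236, and at 21.1 and 20.8 in L428. Namalwa had 3.29 and 3.75 FPKM, and Reh had 2.27 and 1.37. The lowest cHL library stood above the highest untreated control library, at 20.8 against 3.75 FPKM. The share of all tested genes whose libraries separate in this way is not given, here or for the statements of overlap below. Separation is therefore only a description of these libraries. In L1236 the mean of 102.6 ± 15.8 FPKM (SD, n = 2) exceeded 95.1% of tested genes, whereas the Reh mean of 1.82 ± 0.642 exceeded 27.3%.

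**Figure D1:**
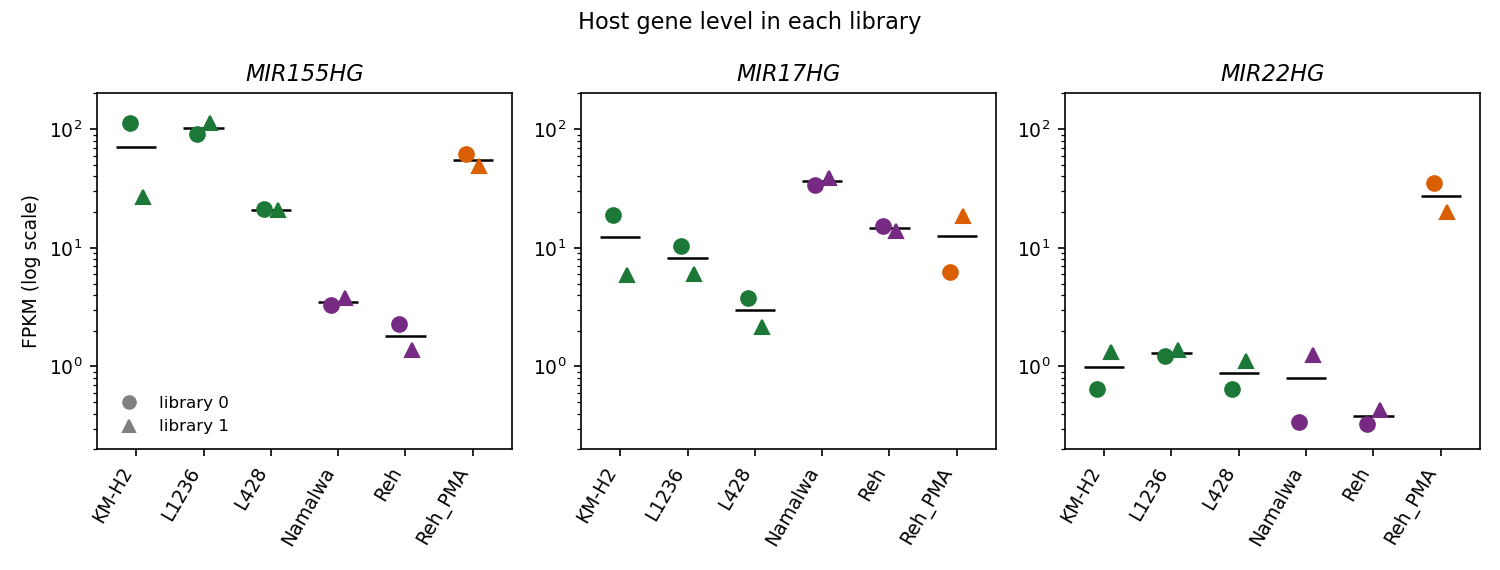
FPKM on a log axis for MIR155HG, MIR17HG and MIR22HG in each of the 12 libraries, with circles for library 0, triangles for library 1 and a bar at each group mean (green, cHL lines; purple, untreated controls; orange, PMA-treated Reh). MIR155HG separates cHL lines and Reh_PMA from the untreated controls, MIR17HG is highest in Namalwa at 33.8 and 39.2 FPKM, and MIR22HG is at 0.329 to 1.39 FPKM in every library outside Reh_PMA.

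The mean over the cHL lines was 64.6 FPKM against 2.67 over Namalwa and Reh, a ratio of 24.2. On the log2(FPKM + 1) scale, used for every difference below and which understates changes of low genes, MIR155HG was higher by 3.83 (SE 0.34, 95% interval 3.06 to 4.60, adjusted p = 1.48e-05, limma with Benjamini-Hochberg adjustment over the tested genes). In this comparison 13.7% of tested genes were called higher and 10.9% lower, a call being an adjusted p under 0.05 with a difference of at least 1. A difference as large as that of MIR155HG was found in 1.40% of tested genes. Leaving out each line in turn gave 3.31 to 4.43, and all 5 values were called. Against the same controls the difference was 4.86 for L1236 (adjusted p = 2.75e-05), 3.99 for KM-H2 (9.78e-05) and 2.63 for L428 (0.00134). The shares of genes called higher in those comparisons were 15.7%, 16.8% and 16.2%. Taking the line means as the units, 5.65 ± 1.12 (SD, n = 3 lines) stood against 1.83 ± 0.49 (n = 2 lines). Among the 10 arrangements of 3 against 2 lines, 1 (a share of 0.1) gave an absolute difference as large, the observed one itself. The exact permutation p was 0.2, a two-sided value that doubles the smaller tail, and the smallest this form gives. Over all alternatives the adjusted p of MIR155HG ran from 1.11e-06 to 0.117, the latter from limma on line means, where the call was lost. With lines as units 80 genes were called in all, and of the genes named below for the cHL lines JUNB and SPI1 kept their call.

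With PMA, MIR155HG rose in Reh from 2.27 and 1.37 FPKM to 61.2 and 48.5, a ratio of means of 30.2. Both treated libraries stood above both untreated ones. The difference was 4.32 (SE 0.53, 95% interval 3.12 to 5.51, adjusted p = 0.000477), and 1.01% of tested genes differed by as much. Of tested genes, 10.5% were called higher with PMA and 11.8% lower. This comparison and the one with the cHL lines share the untreated Reh libraries. The treated level lay within the range of the cHL lines, above L428 and below the L1236 libraries. Reh_PMA minus the cHL lines was 0.14 (95% interval −0.83 to 1.12, adjusted p = 0.794), an interval that still allows a difference of the size of a call in favour of Reh_PMA. In that comparison 34.9% of genes were called and the median gene lay at −0.11.

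Among the cHL lines, MIR155HG was higher in L1236 than in L428 by 2.23 (adjusted p = 0.0115, limma), a ratio of means of 4.90, and 21.9% of tested genes were called in that comparison. The call was lost without L1236 library 1 (adjusted p = 0.0718) or without L428 library 1 (0.0544), where the difference stayed between 2.07 and 2.39, and also when only the cHL libraries were fitted (0.0941, and 0.102 with the column suffix as a block). Adjusted p ran from 0.000246 to 0.102 over all alternatives. KM-H2 could not be placed. Its libraries differed by 2.05 on the log2 scale for MIR155HG, a gap reached by 1.199% of tested genes, and library 1 lay near L428 while library 0 lay at the level of L1236. KM-H2 minus L1236 was −0.87 (adjusted p = 0.238) and ran from −1.89 without KM-H2 library 0, a call, to 0.15 without KM-H2 library 1. KM-H2 minus L428 was 1.36 (adjusted p = 0.0736), and was 2.38 and called without KM-H2 library 1. In each of these 2 comparisons 26.6% of genes were called. In descending order of group means, MIR155HG ran from L1236 through KM-H2, Reh_PMA, L428 and Namalwa to Reh. KM-H2 overlapped both L1236 and Reh_PMA, and the later neighbours in that order did not overlap. Namalwa minus Reh was 0.70 (adjusted p = 0.421), in a comparison where 19.0% of genes were called.

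MIR17HG took a different order, with its highest level in Namalwa. Namalwa had 33.8 and 39.2 FPKM, Reh 15.3 and 14.0, and Reh_PMA 6.25 and 18.7. In the cHL lines it was measured at 18.8 and 5.87 FPKM in KM-H2, at 10.3 and 6.02 in L1236, and at 3.799 and 2.15 in L428. KM-H2 library 0 lay above both Reh libraries, so the cHL lines and controls overlapped by this library, and the other 5 cHL libraries lay below all 4 untreated control libraries.

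The cHL mean was 7.82 FPKM against 25.6 in the controls, so MIR17HG was 3.27-fold higher in the controls by the ratio of means. The log2 difference was −1.71 (SE 0.36, 95% interval −2.53 to −0.89, adjusted p = 0.00337), and 10.7% of tested genes differed by as much. This call rested on Namalwa. Without it, cHL lines minus Reh alone was −1.08 with adjusted p = 0.111, while without Reh the value was −2.34 (adjusted p = 0.00612). Leaving out a cHL line gave −2.04 to −1.25, each called. Over all alternatives adjusted p ran from 0.00184 to 0.348, the latter with line means as units. L428 was lower than the controls by 2.64 (adjusted p = 0.00195). L1236 differed by −1.44 (adjusted p = 0.0383), a call that was lost without any of the 6 L1236, Namalwa or Reh libraries in turn (−1.78 to −1.09), with adjusted p from 0.0234 to 0.251 over all alternatives. KM-H2 differed by −1.05 (adjusted p = 0.108), and by −1.82 with a call without KM-H2 library 0. In these comparisons 13.8%, 13.3% and 13.5% of genes were called lower. Over lines, 2.89 ± 0.83 (n = 3) stood against 4.60 ± 0.89 (n = 2), and the exact permutation test over lines again gave a share of 0.1 and, with the smaller tail doubled, a two-sided p of 0.2.

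The PMA response of MIR17HG could not be read from these libraries. Its treated libraries differed by 1.44 on the log2 scale, a gap reached by 0.845% of tested genes, with 1 below and 1 above both untreated libraries. Reh_PMA minus Reh was −0.38 (95% interval −1.66 to 0.89, adjusted p = 0.682), and 0.34 without Reh_PMA library 0. Namalwa minus Reh was 1.26 (adjusted p = 0.150, ratio of means 2.50), with no overlap of the 2 lines. No pair of cHL lines was called, the widest being KM-H2 minus L428 at 1.59 (adjusted p = 0.0547). With only the cHL libraries fitted and the column suffix as a block, that difference was a call (adjusted p = 0.0407). In each cHL line, library 0 had the higher MIR17HG level. By group means MIR17HG ran from Namalwa through Reh, Reh_PMA, KM-H2 and L1236 to L428, and the 3 middle pairs of neighbours overlapped.

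MIR22HG was low in every untreated line and rose with PMA. It was measured at 0.645 and 1.33 FPKM in KM-H2, 1.21 and 1.39 in L1236, and 0.647 and 1.11 in L428. Namalwa had 0.339 and 1.25 FPKM, and Reh had 0.329 and 0.433. PMA-treated Reh had 35.1 and 19.997 FPKM, far above every other library. The ratio of means over untreated Reh was 72.3, and the treated mean of 27.6 ± 10.7 FPKM exceeded 78.4% of tested genes. The difference was 4.32 (SE 0.33, 95% interval 3.57 to 5.06, adjusted p = 3.52e-05), and 0.995% of tested genes differed by as much. It passed the low-value filter in several lines, not through Reh_PMA alone.

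Reh_PMA also stood above the cHL lines by 3.76 for MIR22HG (95% interval 3.15 to 4.37, adjusted p = 4.05e-06). The cHL lines differed from the untreated controls by 0.39 (95% interval −0.09 to 0.87, adjusted p = 0.146), which was not a call. Single cHL lines differed from the controls by 0.27 to 0.57, with no call. All 3 cHL line means lay above both control line means (exact permutation test of 3 against 2 lines, share 0.1, two-sided p = 0.2 with the smaller tail doubled), at levels of 1.02 ± 0.16 against 0.63 ± 0.23 on the log2 scale. Apart from Reh_PMA, every pair of neighbours in the order of group means overlapped. Neither the use of strand in counting nor the annotation is stated. Reads of WDR81 could therefore enter MIR22HG if the overlapping gene model was used. WDR81 had 2.196 and 3.70 FPKM in Reh_PMA against 4.63 and 5.68 in Reh, a difference of −0.66 (adjusted p = 0.142).

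**Figure D2:**
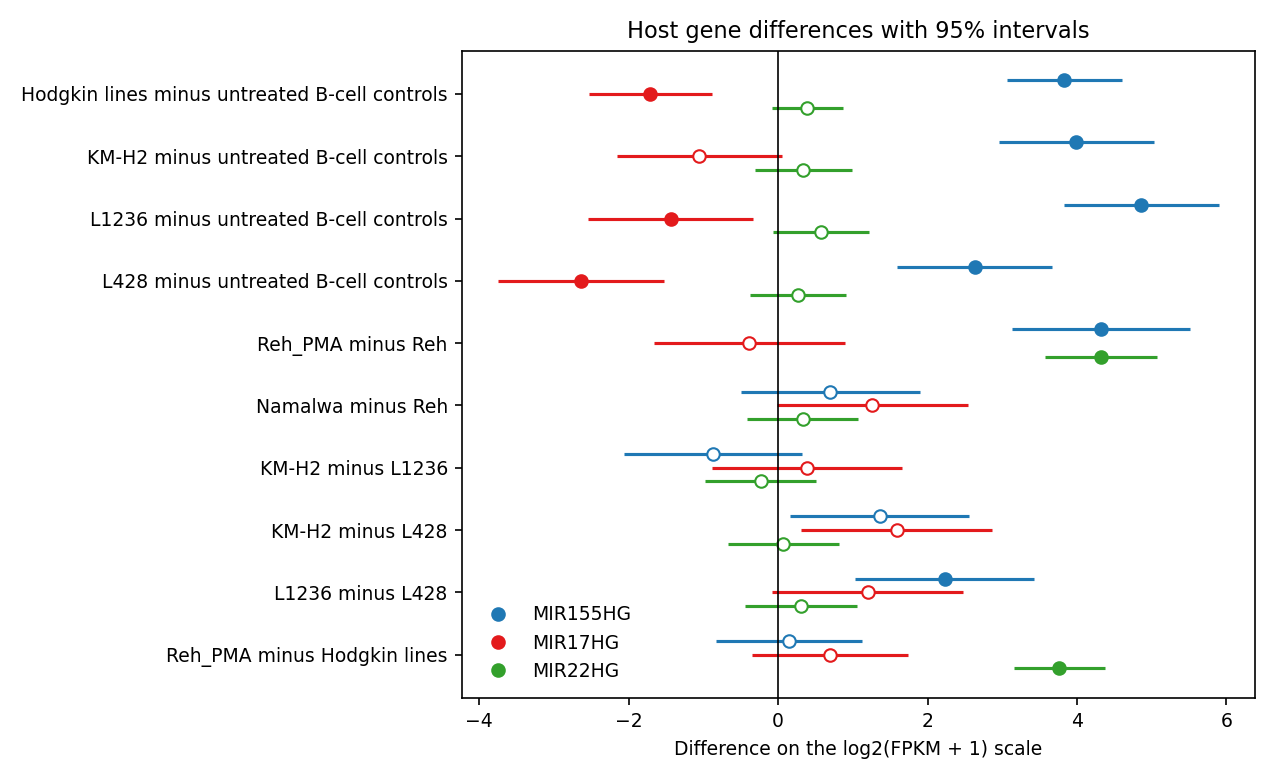
Difference on the log2(FPKM + 1) scale with its 95% interval for MIR155HG (blue), MIR17HG (red) and MIR22HG (green) in 10 comparisons, with filled points for calls (adjusted p under 0.05 and a difference of at least 1). MIR155HG is called in all 3 cHL lines and with PMA, MIR22HG only in the comparisons that contain Reh_PMA, and MIR17HG is called lower in L1236 and L428.

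Because FPKM is per length, the 3 hosts can be set beside each other within a group. The lengths used for them are not known, so the size of these ratios depends on the annotation. MIR155HG exceeded MIR17HG by a ratio of mean FPKM of 5.69 in KM-H2, 12.6 in L1236, 7.05 in L428 and 4.39 in Reh_PMA. In the untreated controls the order turned, with MIR17HG above MIR155HG by 10.4 in Namalwa and 8.04 in Reh. MIR155HG exceeded MIR22HG in every group, by 78.8 in L1236 and by 1.99 in Reh_PMA. MIR22HG stood above MIR17HG in mean level in PMA-treated Reh only, where the libraries of MIR22HG (19.997 and 35.1 FPKM) did not overlap those of MIR17HG. Across the 12 libraries, which share lines and depth, Pearson's r on the log2 scale was −0.41 between MIR155HG and MIR17HG, 0.42 between MIR155HG and MIR22HG, and −0.10 between MIR17HG and MIR22HG.

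Transcription factors reported to act on the MIR155HG promoter, a list of 15 NF-κB, AP-1 and B-cell factors, were described beside it. In the cHL lines 7 were called higher and 2 lower (median 0.87, all tested genes 0.02), where 13.7% and 10.9% of all tested genes were called. With PMA 8 were higher and 1 lower (median 1.79, all tested genes −0.03), where the shares of all tested genes were 10.5% and 11.8%. The 2 called lower in the cHL lines were MYB and ETS1, which together with FOS are also on the list of miR-155 targets below. The members that rose differed in part between the comparisons. JUNB, an AP-1 subunit, stood at 136 to 295 FPKM in the cHL libraries and at 188 and 245 in Reh_PMA, against 18.6 to 23.9 in the untreated controls. Its difference was 3.06 for the cHL lines (adjusted p = 5.68e-07) and 3.34 with PMA (3.08e-05). Over the 12 libraries its level correlated with that of MIR155HG at r = 0.905 (Spearman's rho 0.741). The other factors of this list compared in this way had lower r, at 0.737 for NFKB2, 0.561 for FOS, 0.479 for FOSB, 0.465 for IRF4 and 0.353 for FOSL2.

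IRF4, a factor of activated B cells and plasma cells, was higher in the cHL lines by 4.30 (adjusted p = 2.15e-07), at 74.8 to 194 FPKM. Namalwa had 23.7 and 29.0 FPKM of it beside its low MIR155HG level of 3.29 and 3.75, stood above Reh by 3.87 (adjusted p = 1.23e-05), and without Reh the difference of the cHL lines was 2.36, still a call. Reh had 1.17 and 0.600 FPKM of it and Reh_PMA 0.702 and 1.02, and these libraries overlapped, while MIR155HG was at 61.2 and 48.5 FPKM in Reh_PMA. JUN was higher in the cHL lines by 3.42 (adjusted p = 0.000113) and NFKB2, the precursor of the p52 NF-κB subunit, by 2.78 (2.42e-06). The AP-1 genes FOSB, FOS and FOSL2 rose with PMA by 5.67, 4.69 and 4.32 (adjusted p = 1.24e-05, 0.000452 and 1.75e-05). FOSB had 65.8 and 74.7 FPKM in Reh_PMA, 0.321 and 0.473 in Reh and 0.243 to 3.51 in the cHL libraries, where its difference of 0.72 was not a call. By line it was called higher in L1236 (1.35, adjusted p = 0.00720) and not in KM-H2 (0.37) or L428 (0.43).

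The NF-κB subunits RELB and REL depended on which control was used. RELB was higher in the cHL lines by 1.56 (adjusted p = 0.000500), but its level in Namalwa (32.5 and 19.0 FPKM) lay within the cHL range and the difference without Reh was −0.12. MIR155HG in those Namalwa libraries was at 3.29 and 3.75 FPKM. RELB rose with PMA by 2.48 (adjusted p = 0.00137). REL was higher in the cHL lines by 1.198 (adjusted p = 0.000362), by 0.96 without L428 and by 0.48 without Reh, and it differed by −0.07 with PMA (adjusted p = 0.931). NFKB1 differed by 0.86 in the cHL lines taken as a group and by 0.63 with PMA, neither a call. Against the controls in single lines, it was called higher in KM-H2 (1.10, adjusted p = 0.00618) and L1236 (1.29, adjusted p = 0.00273). In L428 it was not called (0.19).

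**Figure D3:**
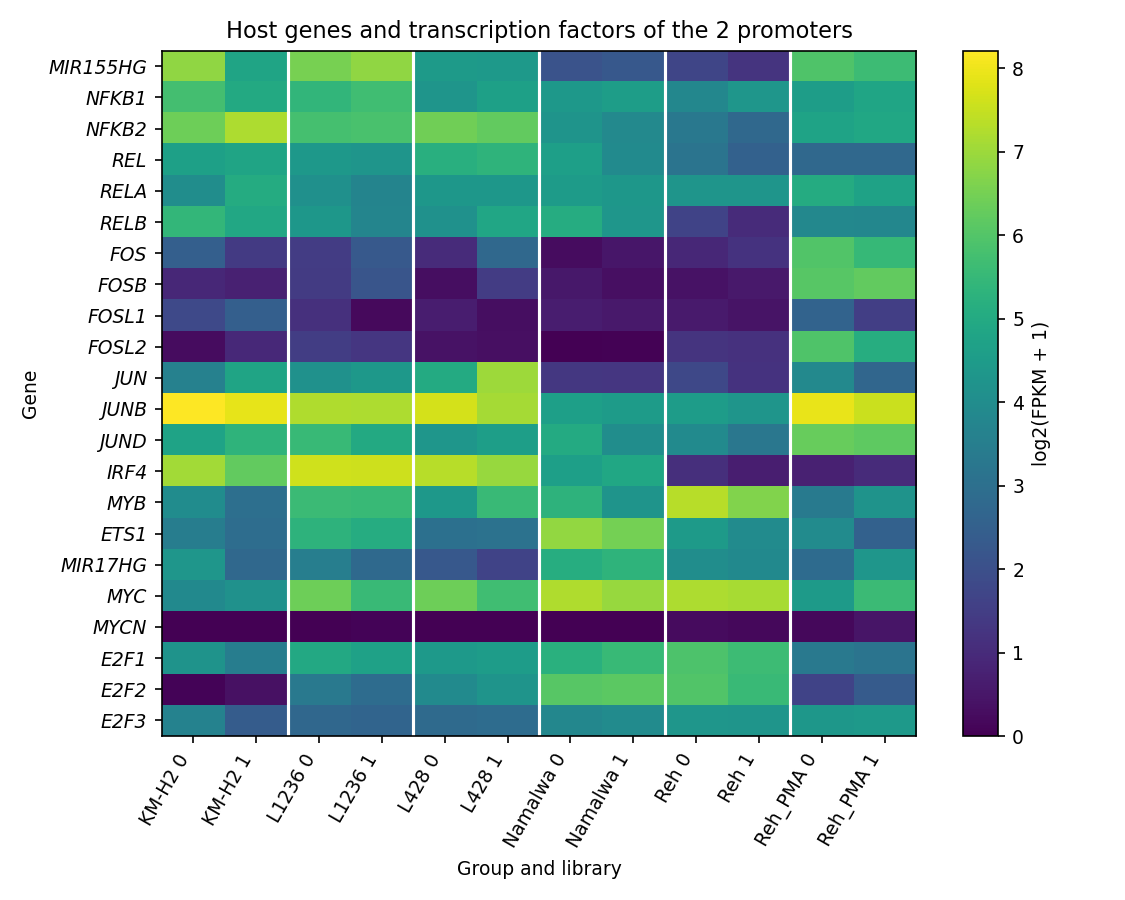
Level on the log2(FPKM + 1) scale in each library (columns, 2 a group) for MIR155HG above 15 factors reported at its promoter and MIR17HG above 5 factors reported at its own. JUNB is bright wherever MIR155HG is, IRF4 is brightest in the cHL lines, FOSB and FOSL2 in Reh_PMA only, and MYC and E2F2 are brightest in Namalwa and Reh.

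Of the 5 factors reported at the MIR17HG promoter, MYCN was too low to test and the other 4 were called lower in the cHL lines (median −1.51), beside 10.9% of all tested genes. With PMA 3 were lower and none higher (median −2.33), beside 11.8% and 10.5%. MYC, which drives growth and the miR-17-92 cluster, had 147 and 140 FPKM in Reh and 148 and 123 in Namalwa. It had 14.0 and 16.6 in KM-H2, 46.8 to 84.1 in L1236 and L428, and 21.1 and 47.8 in Reh_PMA. It was lower by 1.78 in the cHL lines (−1.78, adjusted p = 0.000400) and by 2.14 with PMA (−2.14, adjusted p = 0.00464, with a range of 0.00356 to 0.0509 over alternatives, the latter when Reh and Reh_PMA were fitted alone). E2F2, an S-phase factor, differed by −3.47 and −3.76 (adjusted p = 5.68e-07 and 3.16e-05). E2F1 differed by −1.18 and −2.52 (0.000325 and 0.000195), and in the cHL comparison it fell short of a call without KM-H2 (−0.91) or without Reh (−0.98). E2F3 was lower in the cHL lines by 1.23 (−1.23, adjusted p = 0.00107). MIR17HG and these factors were not ordered alike. KM-H2 had the lowest mean MYC and E2F2 of the 6 groups, at 15.3 and 0.165 FPKM, beside MIR17HG at 18.8 and 5.87 FPKM. In Reh_PMA, library 0 had the lower level of both MIR17HG (6.25 FPKM) and MYC (21.1), and library 1 the higher level of both (18.7 and 47.8), the latter above untreated MIR17HG and below untreated MYC. Over the 12 libraries r between MIR17HG and MYC was 0.372.

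Of 53 other microRNA host genes listed, 52 were in the table and 32 were tested. In the cHL lines 2 were called higher and 11 lower (6.25% and 34.4%, median −0.60), beside 13.7% and 10.9% of all tested genes. With PMA 1 was higher and 11 lower (3.12% and 34.4%, median −0.64), beside 10.5% and 11.8% of all tested genes. MIR4435-2HG, whose reads can be shared with a near-identical copy, was called higher in both comparisons. It had 7.91 to 56.9 FPKM in the cHL libraries and 57.4 and 23.8 in Reh_PMA. Namalwa had 0 and 0.640, and it was listed at 0 in both untreated Reh libraries (adjusted p = 2.31e-06 and 5.31e-05). MIR181A1HG, a host of miR-181a and miR-181b known for lymphoid development, ran the other way. It had 13.5 to 25.2 FPKM in the untreated controls, 0.174 to 4.31 in the cHL libraries and 4.26 and 2.74 in Reh_PMA, differences of −2.77 and −2.36 (adjusted p = 7.76e-07 and 0.000171).

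EVL, an actin regulator and the host of miR-342, was lower in the cHL lines by 3.56 (−3.56, adjusted p = 2.07e-06), at 0.0521 to 8.99 FPKM against 25.5 to 37.1 in the controls. EGFL7, the host of miR-126, was found at 91.3 and 90.0 FPKM in Reh and listed at 0 in Namalwa. Its difference of −2.42 in the cHL lines (adjusted p = 3.20e-07) rested on Reh and was 0.83 without it. MIRLET7DHG, a let-7 host, was at 11.4 and 11.2 FPKM in Reh and listed at 0 in both Reh_PMA libraries (adjusted p = 0.0133). That call was lost without any 1 of the 4 Reh or Reh_PMA libraries (adjusted p = 0.0649 to 0.0756). MIR133A1HG was at 3.74 and 1.55 FPKM in Reh and also listed at 0 with PMA (adjusted p = 0.0121). Its call was lost without Reh library 0 (adjusted p = 0.097), Reh_PMA library 0 (0.0693) or Reh_PMA library 1 (0.0592). MIRLET7DHG was uneven within the cHL duplicates too, at 6.07 and 0.0386 FPKM in L1236 and at 3.78 and 0 in L428, while KM-H2 had 10.2 and 7.48. A value of 0 in a single library of this row was therefore found without PMA as well.

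**Figure D4:**
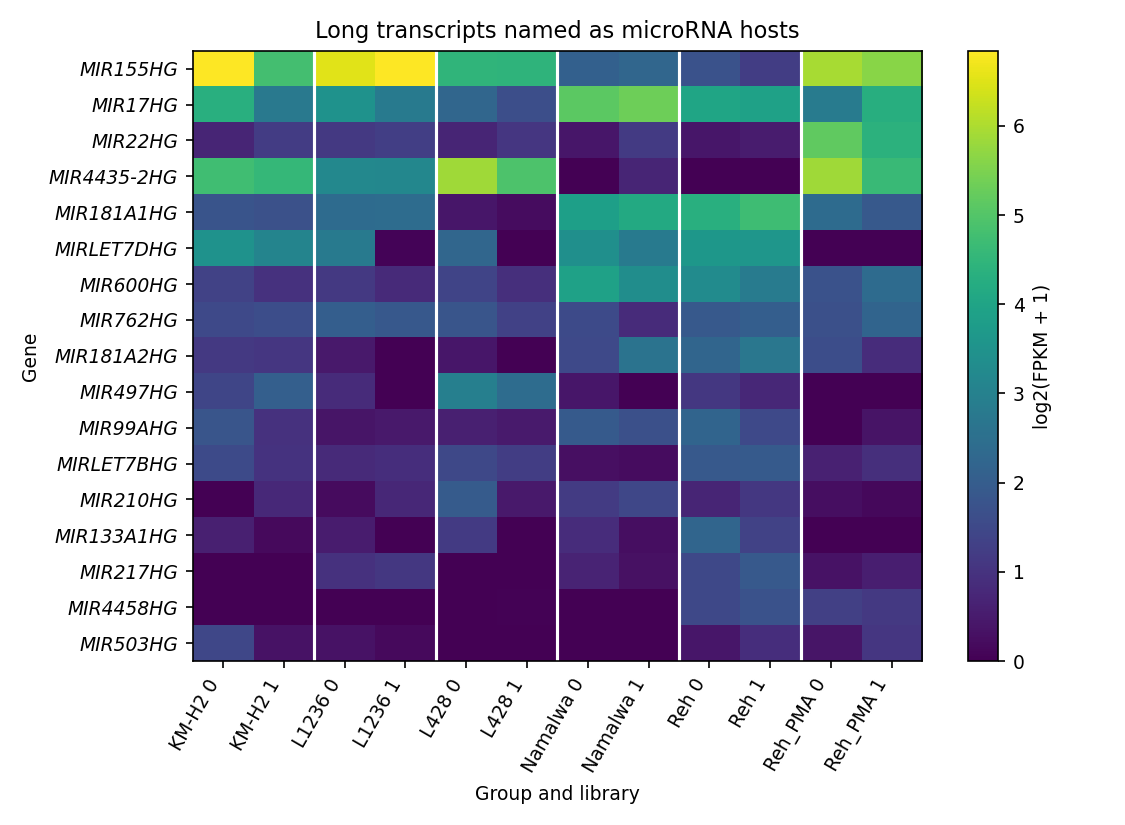
Level on the log2(FPKM + 1) scale in each library (columns, 2 a group) for the 3 hosts and 14 tested transcripts named as microRNA host genes. MIR155HG and MIR4435-2HG are bright in the cHL lines and Reh_PMA, MIR22HG in Reh_PMA only, and MIR181A1HG in Namalwa and Reh.

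Of 21 genes listed for processing and loading of microRNAs, 20 were tested, and in the cHL lines none was called higher and 1 lower (median −0.21), where 13.7% and 10.9% of all tested genes were called. With PMA 1 was higher and none lower (median 0.07), where 10.5% and 11.8% of all tested genes were. The member called lower was LIN28B, which blocks let-7 maturation. It was at 30.0 and 30.2 FPKM in Namalwa and at most 0.0696 elsewhere, and the difference without Namalwa was 0.023. AGO2, an Argonaute protein that holds the guide strand, rose with PMA from 16.9 and 13.8 FPKM to 92.2 and 70.4, by 2.32 (adjusted p = 0.000643). DROSHA differed by 0.77 in the cHL lines and by 0.02 with PMA, and DICER1 by −0.67 and 0.09, none of them a call. Against the controls in single lines, DROSHA was called higher in KM-H2 (1.09, adjusted p = 0.00538) and DICER1 lower in L428 (−1.07, adjusted p = 0.000188). Of the 20, the lines had 1 higher and 3 lower in KM-H2, none and 2 in L1236, and 1 and 3 in L428 (0% to 5% higher and 10% to 15% lower), where 15.7% to 16.8% of all tested genes were called higher and 13.3% to 13.8% lower. Mature microRNA levels were not analysed here.

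Of 18 genes reported as miR-155 targets, all tested, 2 were called higher and 6 lower in the cHL lines (11.1% and 33.3%, median −0.73), beside 13.7% and 10.9% of all tested genes. By line, KM-H2 had 1 higher and 9 lower (5.56% and 50%, beside 16.8% and 13.5% of all tested genes). L1236 had 2 and 4 (11.1% and 22.2%, beside 15.7% and 13.3%), and L428 had 4 and 3 (22.2% and 16.7%, beside 16.2% and 13.8%). With PMA 4 were higher and 5 lower (22.2% and 27.8%, median −0.24), beside 10.5% and 11.8%. SPI1, the haematopoietic factor PU.1, was listed at 0 in all 6 cHL libraries and stood at 22.4 to 33.8 FPKM in the untreated controls (adjusted p = 1.35e-08). With PMA, at a raised MIR155HG level, SPI1 had 14.9 and 13.9 FPKM, a difference of −0.68 that was not a call. SOCS1, an inhibitor of JAK-STAT signalling, was higher in the cHL lines by 3.57 (adjusted p = 3.54e-06), at 19.7 to 61.2 FPKM. GCSAM, a germinal centre adaptor, was lower by 1.77 and 2.62 (−1.77 and −2.62, adjusted p = 0.000372 and 0.00154). The value for the cHL lines was −0.27 without Namalwa and −0.84 without KM-H2, neither a call. Of the 6 germinal centre markers, of which GCSAM is 1, 4 were called lower in the cHL lines and 3 with PMA (66.7% and 50%, beside 10.9% and 11.8% of all tested genes), and their part in these values was not tested. ETS1 was lower in the cHL lines by 1.64 (−1.64, adjusted p = 0.000722), and its difference was −0.41 without Namalwa. With PMA, MYB was lower (−3.19, adjusted p = 0.00235), and MAF was higher by 2.14 (0.000351). FOS, MYB and ETS1 are counted both here and among the factors at the MIR155HG promoter. In the cHL lines MYB and ETS1 were 2 of the 6 targets called lower and FOS was 1 of the 2 called higher, and FOS rose by 4.69 with PMA.

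Genes reported as miR-17-92 targets were 13 tested of 14, with 7 lower and none higher in the cHL lines taken as a group (53.8% lower, median −1.07, beside 10.9% of all tested genes), where MIR17HG was itself lower. By line KM-H2 had 7 lower and 1 higher (PHLPP2, 1.27), L428 had 7 and 1 (CYLD, 1.85), and L1236 had 4 and 3 (BCL2L11, 2.02, CYLD, 1.79, and PHLPP2, 1.15). In these comparisons 13.3% to 13.8% of all tested genes were called lower and 15.7% to 16.8% higher. E2F1, E2F2 and E2F3, called lower in the cHL lines taken as a group, are also among the factors at the MIR17HG promoter. They are counted in both lists. In L1236 alone E2F1 was not called (−0.74). With PMA 3 were higher and 3 lower (23.1% each, beside 10.5% and 11.8%). TGFBR2, a TGF-β receptor, was lower in the cHL lines (−2.51, adjusted p = 1.43e-06) and rose with PMA by 2.69 (7.50e-05), from 15.2 and 8.88 FPKM to 78.7 and 82.9. CDKN1A, the cell cycle inhibitor p21, rose with PMA from 35.9 and 74.1 FPKM to 328 and 286 (2.54, adjusted p = 0.000769). Its difference of −1.36 in the cHL lines (adjusted p = 0.000680) rested on L428, at 2.2 and 2.28 FPKM, and was −0.34 without that line and −0.74, no longer a call, without Reh. By line it was −3.40 in L428 and −1.11 in L1236 (adjusted p = 0.0133), both calls, and 0.42 in KM-H2, not a call. RB1 was lower in the cHL lines (−1.30, adjusted p = 0.000772). Of the 9 reported miR-22 targets 7 were tested, with 2 lower in the cHL lines and 1 lower with PMA (28.6% and 14.3%, beside 10.9% and 11.8% of all tested genes). CDK6, a cyclin-dependent kinase, was lower in the cHL lines (−1.33, adjusted p = 0.000624) and had 163 and 171 FPKM in Reh, and its difference was −0.14 without Reh.

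The treatment itself was read from 22 genes known to respond to phorbol esters, of which 21 were tested. FOS, FOSB, FOSL1, JUNB and RELB are on this list and also among the factors at the MIR155HG promoter, where they made up 5 of the 8 called higher with PMA, so the counts of these lists overlap. With PMA 16 were higher and 1 lower (median 4.52), beside 10.5% and 11.8% of all tested genes. In the cHL lines 9 were higher and 3 lower (median 0.59), beside 13.7% and 10.9%. CCL3 and CCL4, chemokines of activated lymphoid and myeloid cells, were listed at 0 in both Reh libraries and stood at 634 and 374 FPKM and at 351 and 90.3 FPKM in Reh_PMA. The immediate-early factors EGR2 and EGR1 rose by 6.22 and 6.01 (adjusted p = 1.75e-06 and 7.11e-07). In the cHL lines the stress gene IER3 was higher by 2.48 (adjusted p = 2.40e-05) and the phosphatase gene DUSP5 by 2.09 (0.000322). DUSP2, another phosphatase gene, differed by 2.04 (adjusted p = 0.000170), but it was listed at 0 in Reh, and its difference was −0.062 without Reh.

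The 5 genes whose levels followed each host most closely were taken by Pearson's r on the log2 scale over the 12 libraries, from 14162 candidates. For MIR155HG they were FMNL3 (r = 0.948), CD40 (0.945), SLC9A5 (0.940), PVRL1 (0.934) and SLC25A14 (0.933). CD40, a receptor by which T cells activate B cells, had group means of 55.3 FPKM in KM-H2, 144 in L1236, 23.4 in L428 and 59.4 in Reh_PMA, against 10.8 in Namalwa and 4.33 in Reh. For MIR17HG they were NOL9 (r = 0.954), C10orf2 (0.939), LYRM7 (0.934), RCC2 (0.932) and NOP14 (0.930). NOL9 and NOP14, ribosome biogenesis genes, had means of 38.6 and 53.4 FPKM in Namalwa and 9.10 and 18.0 in L428. For MIR22HG they were LINC01204 (r = 0.982), TM4SF1 (0.981), LINC00974 (0.980), EMP1 (0.980) and LOC101928416 (0.980), which were at or near 0 in every group but Reh_PMA. All 5 passed the low-value filter through the Reh_PMA libraries alone, so these r values describe Reh_PMA against the other 10 libraries. The membrane protein genes EMP1 and TM4SF1 had means of 342 and 201 FPKM there. Ranking by Spearman's rho instead left 1, 3 and 0 of these 5 genes in place for MIR155HG, MIR17HG and MIR22HG.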

How the data were processed

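RNA was isolated from 5 cell lines and from PMA-treated Reh, and total RNA libraries depleted of ribosomal RNA were made in duplicate with a stranded kit and sequenced on HiSeq and NextSeq instruments. Which library was run on which instrument is not given in the sources used here, so the instrument cannot be told apart from differences between groups or within duplicates. The authors deposited 1 table of FPKM values; the submitters' processing notes name TopHat2 2.0.11, Cuffnorm 2.2.1, bedtools and hg19, while the gene annotation, the use of strand in counting and the read depth are not given in the sources used here. FPKM are not counts, so log2(FPKM + 1) was fitted with limma 3.58.1 (R 4.3.3; trend, 6 groups, 12 libraries) over 14679 genes with at least 1 FPKM in at least 2 libraries, and p-values were adjusted by Benjamini-Hochberg over all of them. A call needs an adjusted p under 0.05 and a difference of at least 1. Every adjusted p is from this limma fit unless an alternative is named beside it. Lines were also taken as units in an exact permutation test. No interval for counting error can be given, since the depth is unknown. The fit was tested on simulated data.

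The columns of the table give the group and end in 0 or 1, which could not be tied to the replicate numbers of the labels; the text calls them library 0 and library 1, and the fit treats them as unpaired. No 2 libraries of a group held the same values. Named beyond the hosts are the 4 genes of each list with the largest called difference in the cHL and PMA comparisons, and MYC, REL, RELB, NFKB1, JUNB, FOSB, DROSHA, DICER1 and SPI1 whatever they gave, and the 5 genes that correlated best with each host; WDR81 was added for its overlap, and single marker genes and the miR-17-92 targets called higher in single lines were named after their values were seen. 1 gene that this rule selects is not reported here. The 3 hosts and all gene lists were chosen with earlier results of these data known. Alternatives were a pseudocount of 0.1, no filter on low values, median scaling, quantile normalisation, a prior spread without trend, a block on the column suffix, line means as units and each library left out. Leaving out each line, fitting Reh and Reh_PMA alone, fitting the cHL libraries alone (with and without the suffix block) and using 1 suffix were chosen after seeing the data.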

Additional observations from a re-analysis of the deposited data

Results flagged for a closer look

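For MIR22HG, Namalwa library 1 stood apart among the 4 untreated control libraries. Its level of 1.25 FPKM lay above 0.433, 0.339 and 0.329 FPKM, and its gap to the nearest library was 0.855 of the whole range on the log2 scale, above Dixon's critical value of 0.829 for 4 samples. For samples of a single population chance marks about 1 in 20 groups, and 6 groups were checked. These groups pool duplicates of different lines, so that rate need not hold here. Without this library the difference of the cHL lines from the controls was 0.58, against 0.39 with it, and neither was a call.

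MIR155HG differed between cHL lines under the same contrast with the controls: the L1236 effect exceeded the L428 effect by 2.23 on the log2 scale (adjusted p = 0.0115, limma). Both L1236 libraries (91.5 and 114 FPKM) lay above both L428 libraries (21.1 and 20.8 FPKM), and the call was lost without L1236 library 1, without L428 library 1, or with only the cHL libraries fitted.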

How the results depend on the processing

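Of the values recomputed, 1976 kept their direction and call, or for counts stayed within 1.5-fold, while 60 lost a call, 13 gained one, 22 changed sign and 10 moved further than that. With line means as units, 80 genes were called in cHL lines minus controls in place of 3614 (MIR155HG 3.83, adjusted p = 0.117; MIR17HG −1.71, 0.348; limma). Without Namalwa, MIR17HG was −1.08 and LIN28B 0.023; without Reh, DUSP2 was −0.062, EGFL7 0.83 and RELB −0.12. MIR17HG in L1236 minus controls was −1.44 and no call without the low-value filter (adjusted p = 0.0647). KM-H2 minus L428 for MIR17HG became a call with a pseudocount of 0.1 (1.84) and under quantile normalisation (1.65). Quantile normalisation also gave MIR22HG −0.0072 in KM-H2 minus controls and −0.032 in KM-H2 minus L428, MIR155HG −0.075 in Reh_PMA minus cHL lines, and DICER1 −0.015 with PMA. For Reh_PMA minus cHL lines, suffix 0 alone gave −0.50 for MIR17HG and 4.31 for MIR22HG, and suffix 1 alone gave 1.89 and 3.21, with no test. The causes were not tested. Median scaling changed no call of a host. MIR155HG in L428 moved from 20.96 to 20.5 FPKM under it, more than the spread of its duplicates.

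Leaving out each library gave ranges that crossed a call or 0 for these values. The count with PMA was 2082 to 3363 genes, lowest without Reh_PMA library 0 and 2168 without Reh library 0. MIR155HG was −1.89 to 0.15 in KM-H2 minus L1236, 0.34 to 2.38 in KM-H2 minus L428, 2.07 to 2.39 in L1236 minus L428, and −0.20 to 0.48 in Reh_PMA minus cHL lines. MIR17HG was −1.82 to −0.29 in KM-H2 and −1.78 to −1.09 in L1236 against the controls, −1.11 to 0.34 with PMA, −0.38 to 1.15 in KM-H2 minus L1236, 0.82 to 2.35 in KM-H2 minus L428, and −0.027 to 1.42 in Reh_PMA minus cHL lines. MIR22HG was −0.043 to 0.70 in Namalwa minus Reh, −0.48 to 0.017 in KM-H2 minus L1236, and −0.18 to 0.32 in KM-H2 minus L428. With PMA, DROSHA was −0.12 to 0.16 and REL −0.36 to 0.22, and the calls of MIR133A1HG (−2.24 to −1.35) and MIRLET7DHG (−3.63 to −3.60) were lost without single Reh or Reh_PMA libraries. Where a group kept 1 library, it was assumed to vary like the others.

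Nothing in the labels ties the column suffixes across groups, and which suffix was run on which of the 2 sequencing instruments is not given. The differences between suffixes correlated at 0.301 to 0.681 in the 3 pairs of cHL lines and at −0.045 to 0.357 in the 12 other pairs of groups. With the suffix as a replicate block, MIR155HG was 3.83 in cHL lines minus controls (adjusted p = 2.12e-05) and 3643 genes were called, and in this fit of all libraries the block changed no call of a host. With only the cHL libraries fitted, MIR155HG in L1236 minus L428 was 2.23 and lost its call both without the block (adjusted p = 0.0941) and with it (0.102). MIR17HG in KM-H2 minus L428 was 1.59 and became a call with the block (0.0407) but not without it (0.134). No other call of a host between cHL lines changed in these 2 fits. The depth of the libraries is unknown, which limits low values such as those of MIR22HG outside Reh_PMA.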
